A study of Macaca fascicularis with 11 samples.

Results

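Trophoblast cells that carried transcripts of LAIR2, ISM2 and CALCB made up a large share of the trophoblast of cultured cynomolgus monkey embryos. This held for wild-type and ISL1 mutant embryos at Day 12 and Day 14. At Day 10 these cells were almost absent from the wild-type embryos, but they made up 31.1% of the trophoblast in the only mutant library of that day. In that library of pooled embryos, genotype and stage cannot be told apart. They were chosen by their counts. Each cell received 4 scores, the mean natural log of 1 plus its transcripts scaled to 10000, over 7 trophoblast genes (CGA, XAGE3, PGF, KRT7, HSD3B1, VGLL1 and INSL4), 5 epiblast genes, 7 mesenchyme genes and 6 endoderm genes. A cell was taken when its trophoblast score was the highest of the 4 and when at least 2 of LAIR2, ISM2 and CALCB lay above 100 CPM, its counts on the usual scale of a common total for every cell. Of 33330 cells in the series, 23242 had the trophoblast score highest, and 9647 of these passed. The remaining 13595 are called other trophoblast.

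Trophoblast is the outer lineage of the embryo, which attaches to the uterus and builds the placenta. Cytotrophoblast is its dividing epithelial precursor. It gives rise to syncytiotrophoblast, the fused layer that makes choriogonadotropin and steroid hormones, and to extravillous trophoblast, whose cells leave the epithelium, stop dividing and invade the uterine wall and its arteries. LAIR2 encodes a secreted receptor that binds collagens and competes for them with LAIR1, an inhibitory receptor of immune cells. ISM2 encodes a secreted protein of the isthmin family that is known from the placenta. CALCB encodes the beta form of calcitonin gene-related peptide, a potent dilator of blood vessels. In human placenta LAIR2 and ISM2 are markers of the extravillous branch.

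The embryos were grown in culture from the blastocyst stage and dissociated at Day 10, Day 12 or Day 14 for droplet sequencing of single cells. Wild-type embryos gave 2 libraries at each day. ISL1 mutant embryos, made by injecting Cas9 (mRNA in the labels, protein in the methods) and guide RNAs against ISL1 into zygotes, gave 1 library at Day 10 and 2 at each later day. A library pooled between 1 and 3 embryos, and the mutants are mosaic for mostly frameshift deletions.

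Transcripts were tagged with unique molecular identifiers (UMIs) at capture, and each UMI counts as 1 molecule. The libraries held between 36654977 and 164808415 UMIs after the authors had removed ambient RNA, between 0.196% and 8.77% of the total, and a median cell held between 10916 and 142180 UMIs. The shallowest cells were those of mutant Day 14 library 1. ISL1, the targeted gene, lay between 0.901 and 8.38 CPM per library without separating the genotypes. Its edited transcript can still be counted, so this level checks neither the genotype nor the labels. In the LAIR2/ISM2/CALCB cells ISL1 had between 0 and 61 UMIs per library. At most 0.52% of the barcodes of the smaller library of a pair were found in the other, and 71 of the 9647 cells carried such a barcode.

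LAIR2 (ENSMFAG00000041384) reached a mean of 1806 CPM in the chosen cells over the 9 libraries that held at least 10 of them, and 64.4 CPM in other trophoblast of the same libraries. In the summed cells of each library its level was 837 and 903 CPM in wild type at Day 12, 2459 and 1473 CPM in wild type at Day 14, 889 CPM in the mutant at Day 10, 1788 and 1925 CPM in the mutant at Day 12, and 2721 and 3254 CPM in the mutant at Day 14. The 2 wild-type Day 12 libraries and the mutant Day 10 library were thus the lowest, and the 2 mutant Day 14 libraries the highest.

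ISM2 (ENSMFAG00000039426) lay at 138 and 505 CPM in wild type at Day 12, 976 and 386 CPM at Day 14, 235 CPM in the mutant at Day 10, 885 and 1094 CPM at Day 12, and 1855 and 1519 CPM at Day 14. It was again highest in the mutant Day 14 libraries. ISM2 was not confined to the chosen cells. In other trophoblast of the same libraries, 33.8% to 75.6% of the cells held an ISM2 UMI. The upper quartile of these cells reached 138 CPM in wild-type Day 14 library 1, above the threshold of 100 CPM for 1 gene. CALCB (ENSMFAG00000037050) followed another order, with 945 and 1997 CPM in wild type at Day 12, 2580 and 2055 CPM at Day 14, 904 CPM in the mutant at Day 10, 3856 and 3402 CPM at Day 12, and 1833 and 1288 CPM at Day 14. Its highest values were those of the mutant at Day 12. As these genes chose the cells, their levels are a description and were not tested between the cells and other trophoblast.

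**Figure D1:**
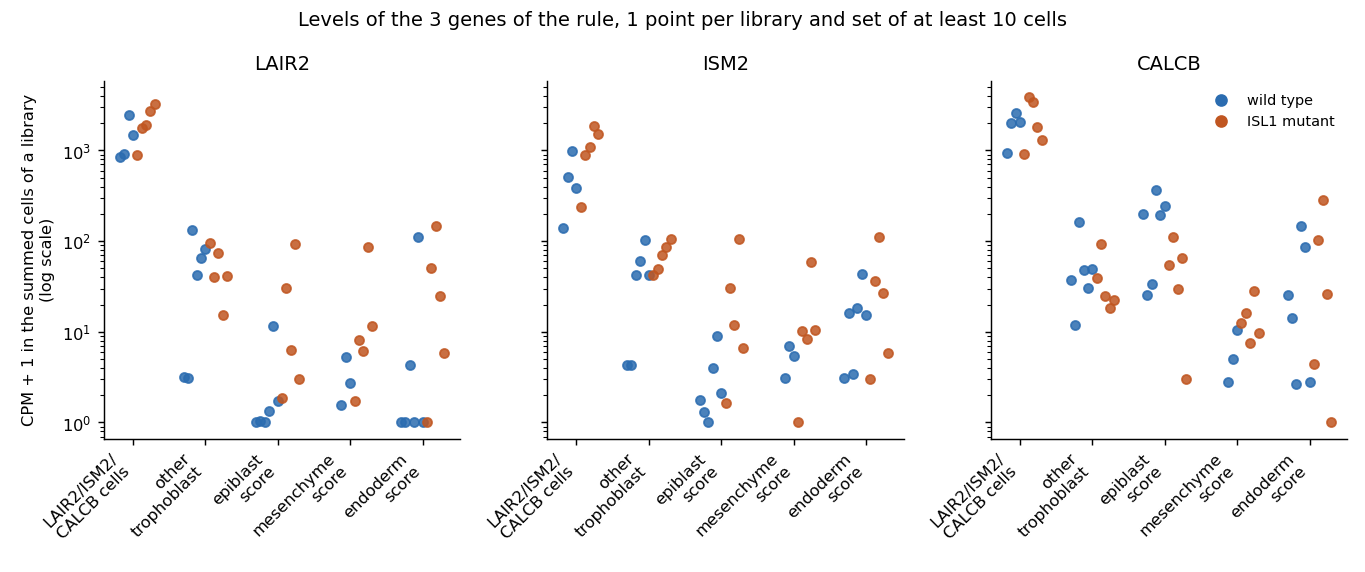
Levels of LAIR2, ISM2 and CALCB in the summed cells of each library, as CPM + 1 on a log axis, for the chosen cells, other trophoblast and the cells whose epiblast, mesenchyme or endoderm score was highest (1 point per library with at least 10 such cells, blue wild type, orange ISL1 mutant). LAIR2 lay between 837 and 3254 CPM in the chosen cells, whereas CALCB also reached up to 365 CPM in epiblast-score cells.

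The threshold did not fall in a gap. The second highest of the 3 genes had a median of 1033 CPM in the chosen cells and 0 CPM in other trophoblast. Just inside the threshold, between 100 and 120 CPM, lay 279 cells, and just outside it, between 80 and 100 CPM, lay 302. A cell of fewer than 10000 UMIs passes with a single UMI of each of 2 genes. Such shallow cells made up 0% to 8.09% of the chosen cells of a library, except in mutant Day 14 library 1, where they made up 23.3%.

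Cells of other kinds rarely passed the same threshold. In wild-type libraries 2 or more of the genes lay above 100 CPM in at most 2.08% of the cells of any other score, which was 1 of 48 endoderm-score cells. In mutant Day 14 library 1 the share was 4.76% of 357 epiblast-score cells (median 7772 UMIs) and 3.60% of 2558 mesenchyme-score cells (median 10218 UMIs), against 41.9% of 6592 trophoblast cells (median 11379 UMIs). The endoderm-score cells of that library reached 5.93% (7 of 118), and the highest share of all was 7.41% in mutant Day 12 library 2, which was 2 of 27 endoderm-score cells. In both libraries the trophoblast share stood far above that of the cells expected to lack these genes. CALCB alone was not restricted to trophoblast, since its level in epiblast-score cells was 199 CPM in wild-type Day 10 library 1 and 365 CPM in wild-type Day 12 library 2, where LAIR2 was at 0 and 0.348 CPM.

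The share of trophoblast cells that passed was nearly 0 in wild type at Day 10 and between 20.8% and 54.7% in the other 9 libraries. In wild type at Day 10, 0 of 394 trophoblast cells passed in library 1, which allows a share of up to 0.761% when 3 counts are taken as the limit of a count of 0 (exact upper limit 0.932%), and 1 of 345 passed in library 2 (0.290%). The mutant library of the same day held 142 of 456 (31.1%, 95% Clopper-Pearson interval 26.9% to 35.6%). That library also held 48 mesenchyme-score cells, of which the wild-type Day 10 libraries held 0 each. With 1 mutant library of pooled embryos, genotype and the stage that these embryos had reached cannot be told apart at Day 10.

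At Day 12 the wild-type shares were 34.4% and 33.5% and the mutant shares 49.4% and 43.5%. At Day 14 they were 54.7% and 20.8% in wild type and 41.9% and 35.2% in the mutant. Without correction for depth, the mutant libraries lay above the wild-type ones at Day 12, and between them at Day 14. The mean was 33.9% ± 0.607 against 46.5% ± 4.18 at Day 12 and 37.7% ± 23.97 against 38.6% ± 4.73 at Day 14 (SD, n = 2 libraries). Over both days the mutant share was 6.71 percentage points higher, which the spread between libraries does not separate from 0 (exact permutation of genotype within day, two-sided p = 0.5, 36 arrangements, smallest possible p 0.0556). The difference was 15.2 points without wild-type Day 14 library 1 (exact permutation p = 0.0556) and −1.77 points without wild-type Day 14 library 2 (exact permutation p = 0.833). All binomial intervals cover counting error only.

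**Figure D2:**
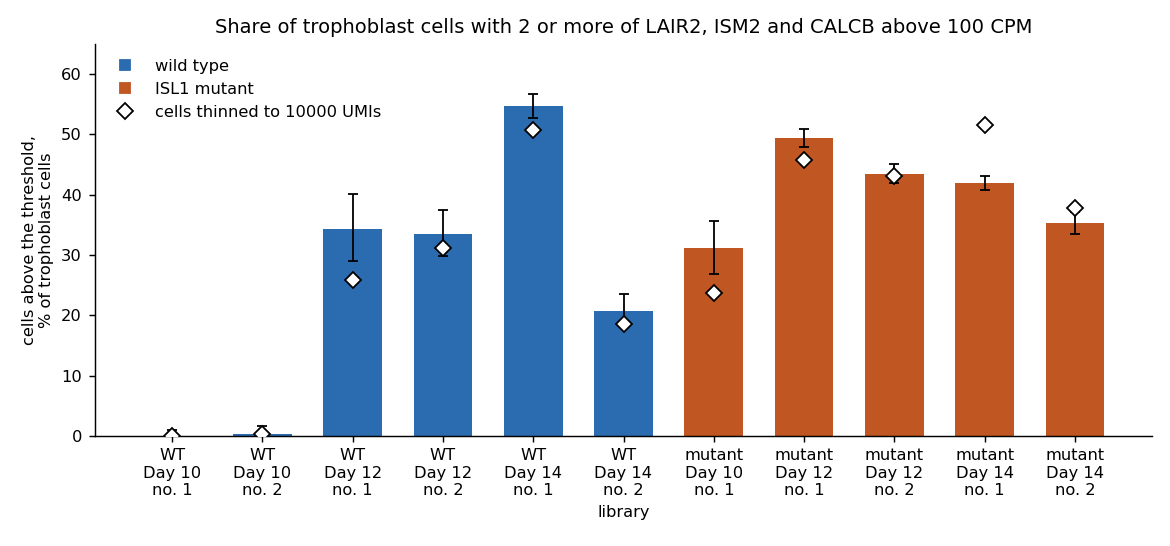
Share of trophoblast cells with at least 2 of LAIR2, ISM2 and CALCB above 100 CPM in each of the 11 libraries (bars, with exact 95% binomial intervals). Diamonds give the same share after cells were thinned to 10000 UMIs, with shallower cells left out. The wild-type Day 10 libraries sit at 0% and 0.290%, the other 9 between 20.8% and 54.7%.

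The shares were also taken at a common depth. After each cell had been thinned to 10000 UMIs, with shallower cells left out, the wild-type shares were 25.9% and 31.1% at Day 12 and 50.7% and 18.5% at Day 14. The mutant Day 10 share was 23.6%, those of Day 12 were 45.8% and 43.0%, and those of Day 14 were 51.6% and 37.8%. Leaving out the shallower cells raised mutant Day 14 library 1 from 41.9% to 53.3%. Thinning then gave 51.6% in this library, with 3977 of its 6592 trophoblast cells remaining. Its share then lay above both wild-type Day 14 libraries, and the difference between genotypes was 10.07 points at Day 14, where it had been 0.871, and 12.98 points over both days (exact permutation p = 0.167).

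The cells were not uniform in which of the 3 genes they held. All 3 lay above 100 CPM in 6215 cells (64.4%), LAIR2 and ISM2 alone in 1714 (17.8%), ISM2 and CALCB alone in 1001 (10.4%), and LAIR2 and CALCB alone in 717 (7.43%). The makeup differed between libraries. Cells with LAIR2 and CALCB but little ISM2 made up 44.6% and 28.6% of the chosen cells in wild type at Day 12, 42.9% in wild-type Day 14 library 2 and 33.1% in the mutant at Day 10. In the other 5 libraries they made up between 2.03% and 8.86%. The kinds below were set apart after the values had been seen, so their levels are given as a description with no test.

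The LAIR2 and CALCB cells went against the extravillous name. CGA, the alpha subunit of choriogonadotropin and a gene of the trophoblast score, had a median of 60707 CPM in them over 9 libraries (17745 to 112751) and of 4212 CPM in cells with all 3 genes (1628 to 9397). In 9 of 9 libraries they also held more TBX3, a transcription factor (median 331 against 16.1 CPM), DNMT3L, a cofactor of DNA methylation (75.4 against 2.504 CPM), DAB2, an endocytic adaptor (321 against 32.2 CPM), and ADM, the vasodilator adrenomedullin (78.0 against 4.199 CPM). FN1, the matrix protein fibronectin and a marker of the extravillous branch, lay the other way, with a median of 5.11 against 393 CPM, as did the protease inhibitor SERPINE2 (1.73 against 91.6 CPM), IGFBP3 (2.56 against 182 CPM), PECAM1 (218 against 834 CPM) and HSD17B2 (189 against 525 CPM). The 2 kinds were compared over 485 genes with a symbol and a median over libraries of at least 20 CPM in either kind. In every library, 70 of these genes were higher and 145 lower in the LAIR2 and CALCB cells. Their CGA level put them at the CGA-rich end of the trophoblast. Their median UMI count was below that of the cells with all 3 genes in 5 of 9 libraries, among them wild-type Day 14 library 1 (19806 against 60051 UMIs) and the mutant Day 14 libraries (7860 and 11908 against 16172 and 42419 UMIs), and above it in the other 4.

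Cells with ISM2 and CALCB but little LAIR2 were set against the cells with all 3 genes in the same way. In 9 of 9 libraries they held more PAGE4, a cytotrophoblast gene (median 1243 against 419 CPM in cells with all 3), more MKI67, a marker of dividing cells (148 against 64.8 CPM), and more HAPLN1, a linker of hyaluronan in the matrix (261 against 87.4 CPM), CLU (41.8 against 11.04 CPM) and the cyclin CCND1 (24.3 against 4.18 CPM). They held less FN1 (6.78 against 393 CPM), ANXA1 (26.6 against 366 CPM), the heme oxygenase HMOX1 (14.4 against 193 CPM), the actin binder TAGLN (41.5 against 455 CPM) and CDKN1C, a cell cycle inhibitor (5146 against 9109 CPM). Of 483 genes 139 were higher and 124 lower in every library. The median UMI count of the ISM2 and CALCB cells was below that of the cells with all 3 genes in every library, for example 41634 against 60051 UMIs in wild-type Day 14 library 1. ISM2 and CALCB were themselves lower in them, at medians of 287 against 1106 CPM and 633 against 3060 CPM.

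Cells with LAIR2 and ISM2 but little CALCB were most frequent in 3 of the 4 Day 14 libraries, at 36.8% in mutant Day 14 library 1, the shallowest library, and at 18.7% and 19.2% in wild-type Day 14 library 1 and mutant Day 14 library 2. In wild-type Day 14 library 2 they made up 3.80%. The comparison covers 5 libraries with at least 10 such cells. These cells held more KRT19 (median 1207 against 582 CPM), PCLAF (185 against 71.9 CPM) and MKI67 (95.4 against 54.2 CPM), and less PECAM1 (445 against 878 CPM) and LGALS3 (1175 against 1783 CPM), in 5 of 5 libraries. FN1 lay between 106 and 1359.5 CPM in them, so that high FN1 was found in the cells with all 3 genes and in the LAIR2 and ISM2 cells, not in the whole set. The LAIR2 and ISM2 cells had the lower median UMI count in each library compared, for example 13155 against 16172 UMIs in mutant Day 14 library 1.

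**Figure D3:**
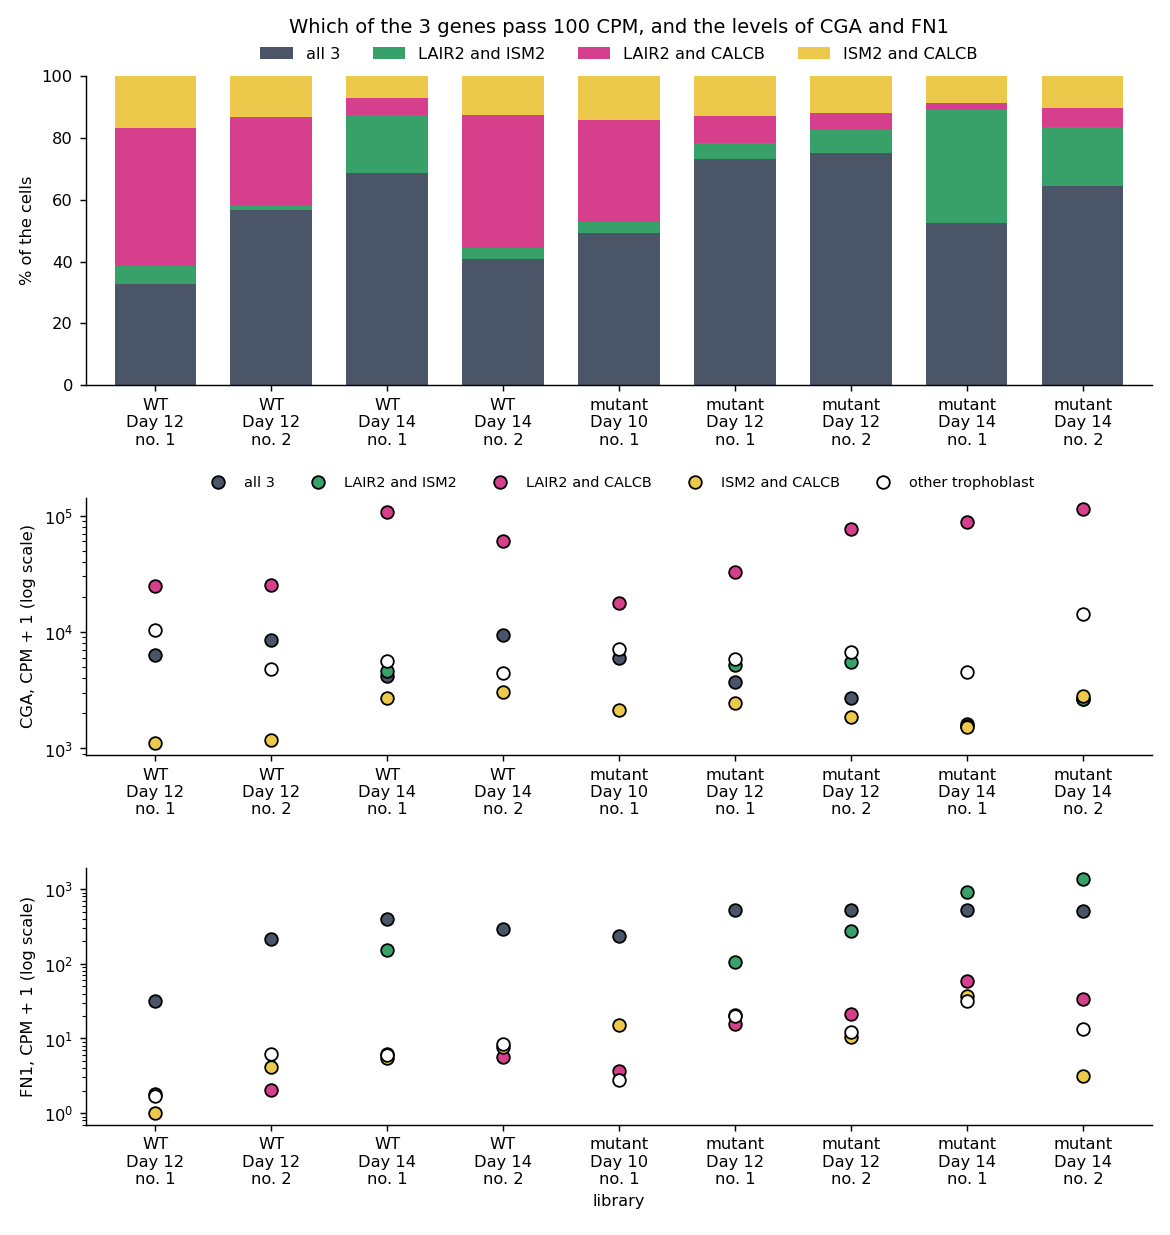
Makeup of the chosen cells of 9 libraries by which of LAIR2, ISM2 and CALCB lay above 100 CPM (top, % of the cells), with the levels of CGA (middle) and FN1 (bottom) in each kind and in other trophoblast, as CPM + 1 on log axes (1 point per library with at least 10 cells of the kind). The LAIR2 and CALCB cells are highest in CGA in all 9 libraries, and cells with all 3 genes hold between 31.0 and 532 CPM of FN1.

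The sums over all chosen cells of a library were then compared with those over other trophoblast of the same library. Both sums come from the same embryos and the same dissociation, so the test asks whether a difference repeats over the 9 libraries. The cells had been split on the 3 genes, and genes that vary with these within a cell are drawn along, so a call does not show that the 2 sets are separate populations. Of 12437 genes tested, 2919 were higher (23.5%) and 2610 lower (21.0%) in the chosen cells at a false discovery rate of 1%. Of these, 1024 were higher and 602 lower by more than 1 on the log2 scale. Among 811 tested genes with a symbol that the rule did not use, 213 were higher (26.3%) and 203 lower (25.0%).

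FN1, SERPINE2 and IGFBP3 had the largest differences among the named genes on the higher side. FN1 (ENSMFAG00000032168) lay at 11.6 and 124 CPM in the chosen cells of wild type at Day 12, 322 and 125 CPM at Day 14, 117 CPM in the mutant at Day 10, 400 and 439 CPM at Day 12, and 615 and 580 CPM at Day 14. Other trophoblast of the same libraries held between 0.676 and 30.5 CPM. Every library was higher in the chosen cells, by 5.10 ± 0.264 on the log2 scale (SE, n = 9, adjusted p = 1.02e-06). SERPINE2, an inhibitor of thrombin and urokinase, had 126 CPM against 3.09 CPM on average, a log2 difference of 4.58 ± 0.718 (adjusted p = 0.000338). IGFBP3, a secreted binder of insulin-like growth factors, had 185 against 8.86 CPM and differed by 4.36 ± 0.415 (adjusted p = 1.52e-05). Both varied widely between libraries, with SERPINE2 between 4.02 and 501 CPM and IGFBP3 between 2.49 and 523 CPM in the chosen cells. In wild-type Day 12 library 1 SERPINE2 was nearly level, at 4.02 CPM in the chosen cells and 3.83 CPM in other trophoblast.

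PECAM1, an adhesion molecule of endothelium that invasive trophoblast is also known to carry, was higher in the chosen cells as well. It lay between 231 and 795 CPM in the chosen cells and between 23.4 and 87.6 CPM in other trophoblast, so that the 2 ranges did not overlap, and differed by 3.79 ± 0.365 (adjusted p = 1.64e-05). COL4A1, a chain of basement membrane collagen, had 56.6 against 14.5 CPM (log2 difference 1.92 ± 0.234). FHL2, an adaptor of actin and integrin signalling, had 100.2 against 8.97 CPM (3.53 ± 0.3999), and LGALS3, a galactose-binding lectin, 1109.9 against 232 CPM (2.41 ± 0.238). All 4 were higher in 9 of 9 libraries, a pattern that 12.8% of all tested genes share. For PECAM1, FHL2 and LGALS3 this direction in every library was a condition of being named.

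HSD17B2, TSPO, MGLL and CTSE were also higher. HSD17B2, which inactivates oestradiol, lay between 150 and 619 CPM against 6.37 to 117 CPM (3.27 ± 0.304, adjusted p = 1.34e-05). TSPO, a mitochondrial protein of cholesterol transport, had 37.2 against 4.24 CPM (3.06 ± 0.267), and MGLL, monoglyceride lipase, 158 against 27.0 CPM (2.69 ± 0.157). CTSE, an aspartic protease, had 47.5 against 6.0045 CPM (3.17 ± 0.274). The other genes of the 15 named on this side were EPSTI1, ENO3, RRAS, TUBB6 and APBB1IP, with log2 differences between 2.36 and 3.21.

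CCND1 had the largest difference among the named genes on the lower side. CCND1, a cyclin of entry into the cell cycle, lay between 2.97 and 24.5 CPM in the chosen cells. In other trophoblast of the same 9 libraries it lay between 30.3 and 376 CPM, without overlap (−3.28 ± 0.338, adjusted p = 2.38e-05). The wild-type Day 10 libraries, which were not part of this comparison, held 18.1 and 8.11 CPM in other trophoblast, within the range of the chosen cells. The adhesion molecules of epithelium EPCAM (43.8 against 123 CPM, −1.53 ± 0.174) and BCAM (11.8 against 45.8 CPM, −2.13 ± 0.258) and the surface glycoprotein CD24 (182 against 577 CPM, −1.58 ± 0.147) were lower in 9 of 9 libraries, as 23.6% of all tested genes were. For each gene named on this side, that direction in every library was a condition of being named. NRP2, a co-receptor of vascular growth factors and semaphorins (18.1 against 73.2 CPM, −2.04 ± 0.251), BAMBI, a decoy receptor of the TGF-beta family (9.88 against 30.6 CPM, −1.62 ± 0.184), and MSX2, a transcription factor (119 against 241 CPM, −1.69 ± 0.405, adjusted p = 0.00449), were lower too. The other 8 named genes were NLRP7, CLU, CENPV, PKIG, ZFAT, CBSL, LOC102116612 and LOC102145365, with log2 differences between −2.39 and −1.49. CBSL has a near-identical copy, so its counts are uncertain.

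**Figure D4:**
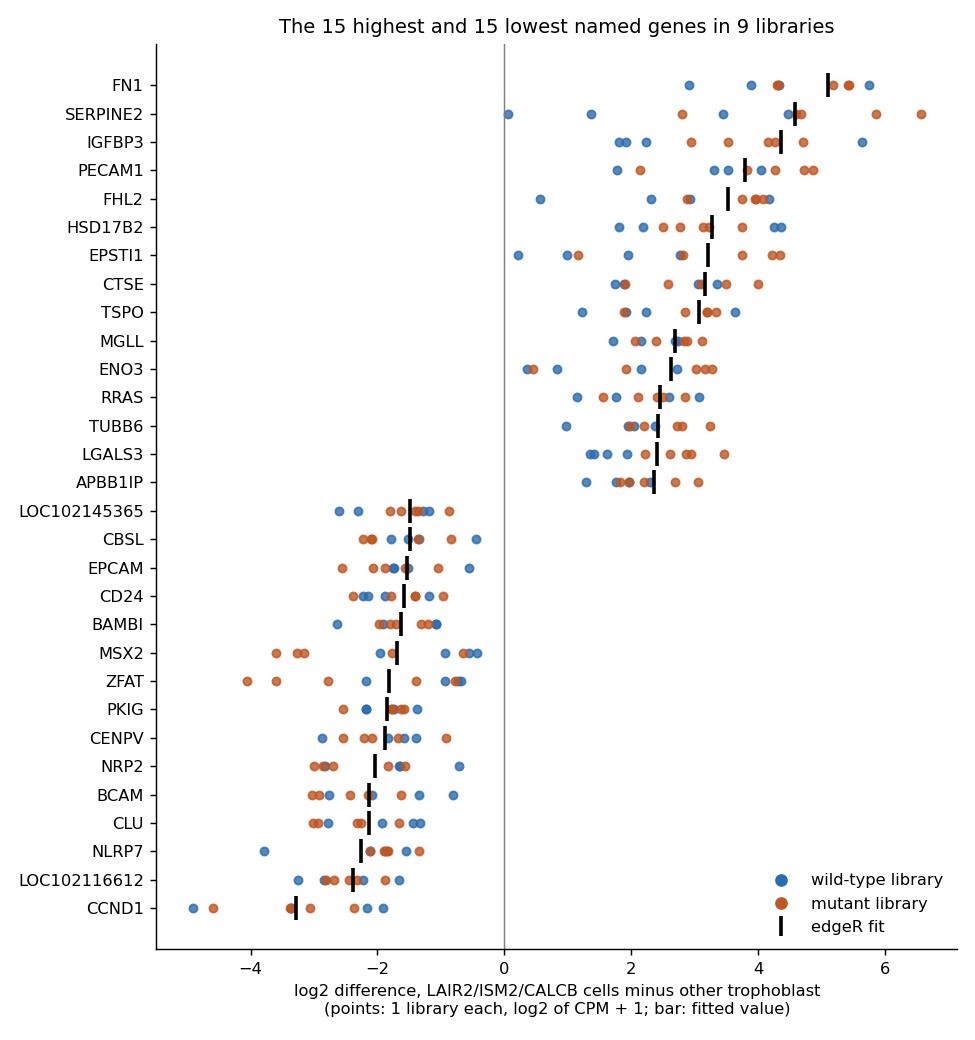
Log2 difference between the chosen cells and other trophoblast for the 15 highest and 15 lowest named genes: 1 point per library from log2(CPM + 1) (blue wild type, orange ISL1 mutant) and a bar at the fitted value. The genes were selected for having all 9 libraries on the same side of 0, and FN1 at 5.10 and CCND1 at −3.28 are the extremes.

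Few members of the lists of cell type genes can be read, since the files name genes by identifier and symbols were at hand for 1014 of 19367. The symbols came from the supplementary tables of the study. Which genes of a list can be read thus depended in part on results from these same libraries. Of 45 extravillous genes 7 have an identifier, and HLA-G, ITGA1 and MMP2 are not among these. FN1 and SERPINE2 were higher, 2 of 7 beside 26.3% of all tested genes with a symbol, and none was lower. PLAU (40.2 against 27.5 CPM), TGFB1 (36.2 against 26.8 CPM), TIMP1, FSTL1 and TPM1 did not pass the test. The median log2 difference of the 7 was 0.63, and that of all genes tested −0.0026. The share of the list called was thus near the background. The cells are called here by the genes of the rule.

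Of 33 syncytiotrophoblast and hormone genes 5 were tested. Of these 4 were higher, at a median of 1.12, beside 26.3% of all tested genes with a symbol. All those called except TFPI are also in the study's own list for Day 14 trophoblast. That list was drawn from these same libraries, so the count is not independent of it. GCM1, the transcription factor of trophoblast fusion, had 184 against 97.5 CPM (1.12 ± 0.190), TFPI, a clotting inhibitor, 203 against 79.3 CPM (1.47 ± 0.187), and FDX1, an electron donor of steroid synthesis, 636 against 451 CPM (0.65 ± 0.149), next to HSD17B2. In the CGA-rich LAIR2 and CALCB cells the medians of TFPI (151 against 235 CPM in cells with all 3 genes), GCM1 (150 against 191 CPM) and HSD17B2 were lower. Those of FDX1 (1583 against 453 CPM) and ADM were higher. Of 7 cytotrophoblast genes, with a median of −1.08, 4 were lower, beside 25.0% of all tested genes with a symbol. They were ITGA6 (23.2 against 58.5 CPM), BCAM, EPCAM and PARP1, and SPINT2 alone was higher (559 against 475 CPM). PAGE4 was at 576 against 1325 CPM and did not pass (−0.91 ± 0.284, adjusted p = 0.0179), and neither did DUSP6.

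Of 17 cell cycle genes tested 11 were lower, beside 25.0% of all tested genes with a symbol, at a median of −0.63, among them MKI67 (75.6 against 128 CPM, −0.63 ± 0.102), CCNB2 (29.5 against 79.5 CPM, −1.29 ± 0.121) and ASPM (22.9 against 50.9 CPM, −1.02 ± 0.121). The inhibitor CDKN1C was higher in 9 of 9 libraries (9062 against 4973 CPM, 1.06 ± 0.142), and so was cyclin CCNE1 (1645 against 1210.3 CPM, 0.57 ± 0.0459). Both are also in the study's list for Day 14 trophoblast, drawn from these same libraries. The summed level of the 17 was higher in the chosen cells in 9 of 9 libraries (median 11608 against 7505 CPM), and CDKN1C was the largest part of it. MKI67 still reached between 56.9 and 104 CPM in the chosen cells, so they did not lack its transcripts.

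Of 21 trophoblast transcription factors 6 were higher and 3 lower, beside 26.3% and 25.0% of all tested genes with a symbol, with a median of −0.0001. CREM, a factor of cAMP signalling (309 against 98.0 CPM, 1.84 ± 0.163), and EPAS1, the hypoxia-inducible factor 2 alpha (141 against 66.2 CPM, 1.19 ± 0.130), had the largest differences of the 6. AHRR, LMO4, NRIP1 and DLX6 were higher by 0.27 to 0.68, and DLX5 and IRX2 lower by less than MSX2. GATA2 (181 against 218 CPM) and GATA3 (208 against 237 CPM), which every trophoblast type is known to hold, did not pass the test. The 88 genes outside the rule that the study lists for Day 14 trophoblast were mostly higher, 61 against 3 lower at a median of 0.75. But that list was drawn from these same libraries and is not independent. The transcription factors called above, except EPAS1 and MSX2, are in it too.

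The lists of vessel and blood cell genes hold 16 and 19 genes, of which 5 and 4 were tested. Of these, 3 and 4 were higher, beside 26.3% of all tested genes with a symbol. All those called except CD53 are also in the study's list for Day 14 trophoblast. As that list was drawn from these same libraries, the 2 counts are not independent of it. The endothelial list had PECAM1, CDH5 (178 against 77.6 CPM, 1.34 ± 0.175) and CLEC1A (170 against 74.8 CPM, 1.36 ± 0.151) higher of 5 tested, and its summed level was 570 to 1201 CPM in the chosen cells against 128 to 258 CPM. The other genes of this list that were tested, VWF (0.191 to 6.94 CPM) and TEK (0.127 to 3.25 CPM), were near 0 in the chosen cells and were not called. All 4 blood cell genes tested were higher, APBB1IP, ITGB2 (126 against 64.2 CPM), LCP1 (147 against 106 CPM) and CD53 (16.9 against 4.34 CPM), with sums of 188 to 492 CPM against 106 to 287 CPM. The pan-leukocyte gene PTPRC has no identifier here. Whether vessel or blood cells had a part in these levels was not tested.

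The remaining lists were surface molecules, collagens, ligands, the calcitonin family, amnion, hypoxia and stress genes. Their counts stand beside 26.3% higher and 25.0% lower among all tested genes with a symbol. Of the genes called higher, CD55, CD59, VSIR, WNT7A, HERPUD1 and SDF2L1 are also in the study's list for Day 14 trophoblast. That list was drawn from these same libraries. Surface molecules that immune cells meet included 3 higher genes of 9, the complement regulators CD55 (220 against 124 CPM) and CD59 (742 against 362 CPM) and the checkpoint ligand VSIR (124 against 36.4 CPM, 1.91 ± 0.107), and 1 lower gene, BST2. HLA-C, a member of a gene family with near-identical copies, lay at 3.43 against 3.94 CPM and did not pass. Of 6 collagens that the rule did not use, COL4A1 was higher and COL18A1 lower (1.87 against 3.66 CPM). Of 11 ligands BMP4 (11.5 against 3.32 CPM) and WNT7A (125 against 68.6 CPM) were higher and WNT3 and WNT6 lower, the latter pair at or below 0.481 CPM in the chosen cells. In the calcitonin family ADM was the only gene outside the rule that could be tested, at 18.7 against 15.3 CPM, and it did not pass.

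Beside the same 26.3% and 25.0%, amnion genes were mostly not called, with BMP4 higher and GABRP, WNT6 and KRT19 (945 against 1817 CPM) lower of 10. Hypoxia and glycolysis genes went both ways, 6 higher and 4 lower of 24 at a median of −0.048, with ERO1A (180 against 74.2 CPM) and SLC16A3 (118 against 51.8 CPM) higher and ENO1 (746 against 1148 CPM) lower. Of 7 stress genes 4 were higher and 0 lower at a median of 0.69, HSPB1 (791 against 510 CPM), HSP90B1, HERPUD1 and SDF2L1. Among marks of cell quality, the chosen cells had the higher median UMI count in 8 of 9 libraries and the lower mitochondrial share in 8 of 9 (for example 2.23% against 3.13% in wild-type Day 14 library 1). Doublet calls reached 3.37% of the chosen cells of a library and 1.31% of other trophoblast. The part of depth in these differences was not tested beyond the alternative with cells of at least 10000 UMIs, which called 2917 genes higher and 2578 lower.

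The genes whose levels followed the 3 most closely were read from rank correlations over 20 sums, 9 of chosen cells and 11 of other trophoblast. GALNT1 (Spearman rho 0.928), MFAP2 (0.926), the trophoblast score gene INSL4 (0.923), ARPC1B (0.917), PECAM1 (0.914), ITM2B (0.913), HSD17B2 (0.911), LGALS3 (0.910), S100A11 (0.910) and LOC102142214 (0.908) came first among the genes with a symbol. The sums share libraries and the split that the rule made, and both enter this likeness. Over the 9 sums of chosen cells alone, rho was 0.95 for GALNT1, MFAP2 and ITM2B but 0.333 for LOC102142214 and 0.6 for INSL4.

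Between conditions, the genes that led the contrast with other trophoblast also differed in level between libraries, but none passed the test. SERPINE2 lay at 4.02 and 6.35 CPM in wild type and 107 and 102 CPM in the mutant at Day 12. At Day 14 the wild-type values were 83.8 and 24.5 CPM and the mutant values 501 and 290 CPM. The mutant Day 10 library held 17.7 CPM. The mutant level was higher by 4.34 at Day 12 and by 2.83 at Day 14 on the log2 scale (adjusted p = 0.198 and 0.195). The libraries of the 2 genotypes did not overlap at either day.

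IGFBP3 lay at 2.49 and 10.4 CPM in wild type and 140 and 271 CPM in the mutant at Day 12, and the Day 14 values were 203 and 28.0 against 484 and 523 CPM (5.06, adjusted p = 0.213, and 2.09, adjusted p = 0.370). FN1, whose levels are given above, was higher in the mutant by 2.69 (adjusted p = 0.267) and 1.41 (adjusted p = 0.501). WFDC2, a secreted protease inhibitor named after its values had been seen, lay at 447 and 490 CPM against 2838 and 2409 CPM at Day 12 and at 1353 and 880 CPM against 8512 and 5026 CPM at Day 14 (2.46 and 2.61, adjusted p = 0.198 and 0.138). In these 4 genes both mutant libraries exceeded both wild-type ones at both days, a pattern that 11.6% of all 14206 genes tested share.

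On the other side, CGA was at 12894 and 12817 CPM in wild type and at 6405 and 6003 CPM in the mutant at Day 12, and at 7766 and 32199 CPM against 2721 and 7205 CPM at Day 14. HSD3B1, which makes progesterone, was at 1471 and 865 CPM against 523 and 485 CPM at Day 12 and at 543 and 1396 CPM against 149 and 188 CPM at Day 14. Both are genes of the trophoblast score that helped to choose the cells, so their levels are a description. The removal of ambient RNA, which was guided by CGA, also differed between the genotypes. It took 2.27% and 1.08% of the UMIs in wild type and 4.35% and 7.99% in the mutant at Day 12. At Day 14 it took 2.98% and 0.457% against 8.77% and 3.22%. Its part in the CGA levels was not tested. MSX2 was at 340 and 169.2 CPM against 37.96 and 18.9 CPM and at 43.8 and 225 CPM against 8.17 and 9.64 CPM (−3.24 and −3.81, adjusted p = 0.214 and 0.193). In these 3 genes the wild-type libraries lay above the mutant ones at both days, as in 8.28% of all genes tested. CDKN1C, in contrast, lay between 7372 and 12333 CPM with the genotypes mixed, and PECAM1 was apart at Day 12, at 231 and 506 CPM in wild type and 707 and 795 CPM in the mutant, but overlapped at Day 14, at 750 and 492 against 744 and 748 CPM.

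**Figure D5:**
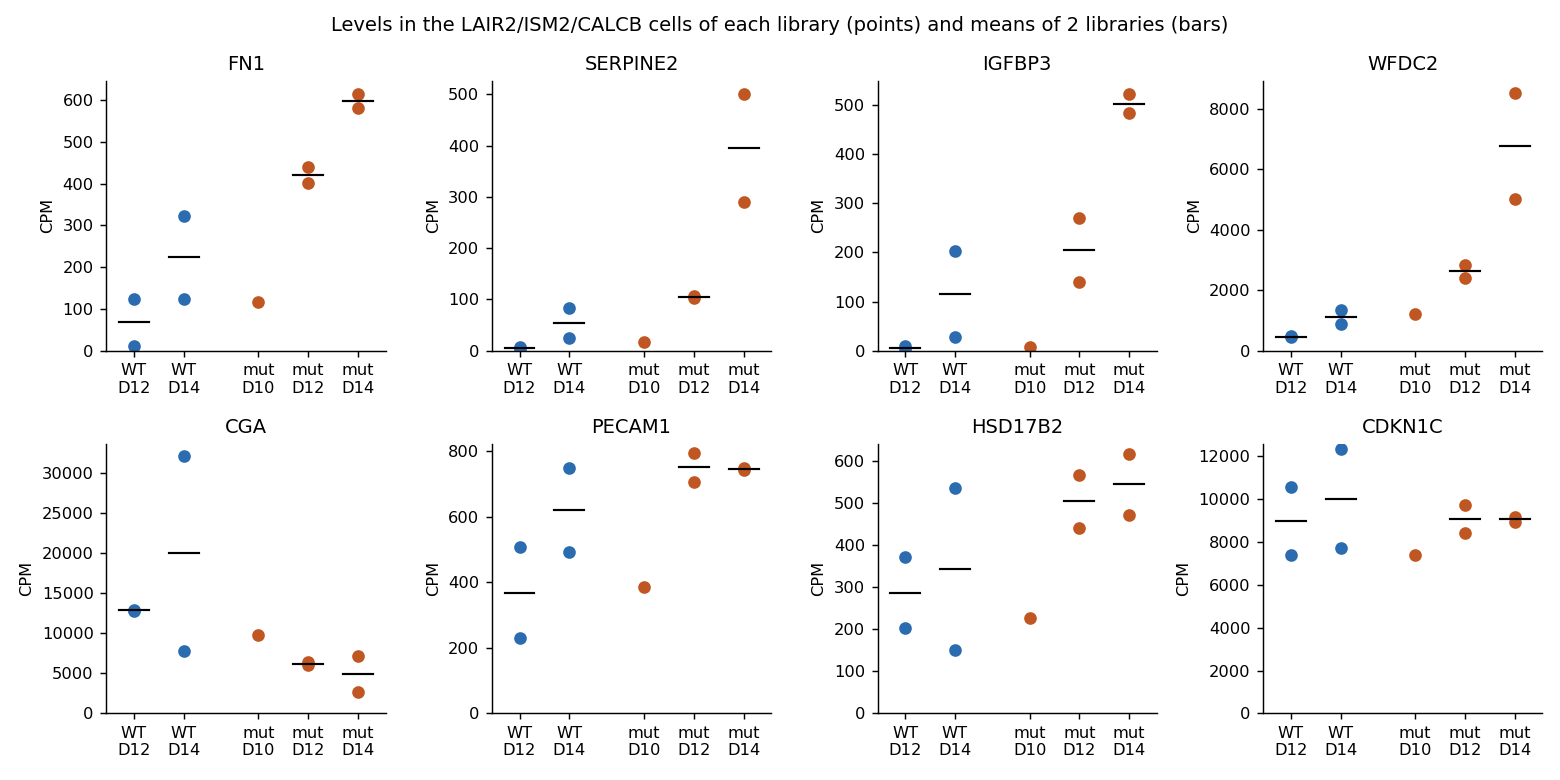
Levels of 8 genes in the chosen cells of 9 libraries (points, CPM; blue wild type, orange ISL1 mutant) with the mean of the 2 libraries of a group (bars), axes from 0. FN1, SERPINE2, IGFBP3 and WFDC2 are higher and CGA lower in both mutant libraries at Day 12 and Day 14, while CDKN1C and PECAM1 overlap at Day 14. CGA helped to choose the cells, so its levels are a description. None of the differences in the other genes passed the test.

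Of the 30 named genes, which were chosen by the contrast with other trophoblast in these same libraries, 8 were higher in both mutant libraries at both days and 1, MSX2, was lower. Over all 14206 genes tested, 11.6% were higher and 8.28% lower in that way. Of the 30, CLU alone lay on opposite sides at the 2 days, as did 5.43% of all genes tested. At a false discovery rate of 1%, edgeR called 0 genes (0%) between mutant and wild type at Day 14, with 1991 at an unadjusted p under 0.05, and 0 (0%) at Day 12, with 2152. Between Day 14 and Day 12 it called 0 genes in wild type (1019 unadjusted) and 0 in the mutant (1400 unadjusted). DESeq2 called 252, 246, 51 and 108 genes in these 4 comparisons. Each group has 2 libraries, and a count of 0 does not show that the levels were equal.

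The makeup of the cells differed along with these levels. ISM2 passed the threshold in 55.4% and 71.4% of the chosen cells in wild type at Day 12, 57.1% in wild-type Day 14 library 2 and 66.9% in the mutant at Day 10, and in 91.1% to 98.0% in the other 5 libraries, which hold 4 of the 5 mutant ones. Within the cells with all 3 genes alone, SERPINE2 was at 7.53 and 9.89 CPM in wild type and 140 and 119 CPM in the mutant at Day 12, and at 91.6 and 57.1 CPM against 345 and 241 CPM at Day 14. WFDC2 in these cells was at 439 and 629 CPM against 3549 and 2713 CPM, and at 1407 and 1328 CPM against 5620 and 3804 CPM. FN1 was at 31.0 and 214 against 518 and 525 CPM, and at 393 and 290 against 532 and 512 CPM. The order of the genotypes was thus the same within the cells with all 3 genes. At Day 14 the ratio of the mutant to the wild-type mean was smaller in them than in all chosen cells, at 3.94 against 7.31 for SERPINE2, 3.45 against 6.06 for WFDC2 and 1.53 against 2.68 for FN1. At Day 12 it was 14.8 against 20.2 for SERPINE2, 5.87 against 5.60 for WFDC2 and 4.25 against 6.19 for FN1. These ratios were not tested.

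The difference between the chosen cells and other trophoblast was also compared between genotypes. A model with a term for chosen cells of mutant libraries called 0 of 12437 genes (0%), with 1213 at an unadjusted p under 0.05 and a smallest adjusted p of 0.505, and DESeq2 called 5. For FN1 the mutant difference exceeded the wild-type one by 0.33 on the log2 scale (adjusted p = 0.843), for SERPINE2 by 2.5 (adjusted p = 0.510) and for WFDC2 by 2.29 (adjusted p = 0.508).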

How the data were processed

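Cells of 11 libraries from cultured embryos were sequenced as droplet libraries. According to the methods, the authors counted UMIs with Cell Ranger 3.1.0 against the Ensembl cynomolgus annotation, dropped genes found in fewer than 3 cells, excluded cells by mitochondrial share and gene number, and removed ambient RNA with SoupX, guided by CGA in POU5F1-positive cells. The deposited corrected values are expected counts in whole numbers; the deposited uncorrected counts served as an alternative, without 209 cells found there alone. No deposited file assigns cells to types.

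The cells and gene lists were chosen with earlier results of these data known, and some lists come from the study. Symbols came from the supplementary tables for 1014 of 19367 identifiers. UMIs were summed per library over sets of at least 10 cells and tested with edgeR 4.0.16 (TMM, filterByExpr, quasi-likelihood F test with robust fitting, two-sided, p-values adjusted after Benjamini and Hochberg, false discovery rate 1%) in R 4.3.3, with the library as a block for chosen cells against other trophoblast and with 1 mean per genotype and day for conditions, where all groups share 1 spread. Levels are CPM of the summed cells. Genes named were those of the lists, the 15 largest differences each way among called genes with a symbol, at least 20 CPM and 1 direction in all 9 libraries, and, for conditions, genes past the threshold, of which there were none. The lists of trophoblast, epiblast, mesenchyme and endoderm genes were used to choose cells. Libraries rather than embryos are the replicates, so p-values measure the spread between libraries of pooled embryos, and replicate libraries differed beyond sampling noise (chi-square per gene 51.8 to 219). The planned comparison of wild-type Day 14 with Day 10 could not be made for lack of cells, and Day 14 was compared with Day 12 instead. The labels number the libraries of a group as batches 1 and 2 without stating that a number was run together across groups, and differences between the 2 libraries of a group correlated at −0.355 to 0.116 between groups. Doublets were called with Scrublet in scanpy 1.11.5 (expected rate 6%) and kept. Alternatives were DESeq2 1.42.0, no filter, thresholds of 50 and 200 CPM, uncorrected counts, no doublets, thinning to 10000 UMIs, cells of at least 10000 UMIs (added after seeing the data), the replicate block and each library left out. The fits were tested on simulated counts with known changes.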

Additional observations from a re-analysis of the deposited data

Results flagged for a closer look

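Of the 44 genes whose levels were set side by side at both days, 3 lay on opposite sides, with both mutant libraries above both wild-type ones at one day and below them at the other, as did 5.43% of all 14206 genes tested. CALCB, a gene of the rule, was at 945 and 1997 CPM in wild type against 3856 and 3402 CPM in the mutant at Day 12, and at 2580 and 2055 CPM against 1833 and 1288 CPM at Day 14, so that the log2 difference between genotypes was lower by 1.86 at Day 14 (coded as −1.86, Day 14 minus Day 12). PAGE4 was at 869 and 666 CPM against 352 and 322 CPM at Day 12, and at 511 and 502 CPM against 637 and 824 CPM at Day 14 (1.79). CLU was at 20.395 and 14.2 CPM against 21.9 and 20.427 CPM at Day 12, where the nearest libraries of the genotypes were almost level, and at 20.0 and 20.7 CPM against 12.4 and 14.4 CPM at Day 14 (−0.81). None of the 3 changes between days was tested. PAGE4 and CLU did not pass the test between genotypes at either day. CALCB helped to choose the cells, so its levels are a description.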

How the results depend on the processing

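The numbers of genes that separate the chosen cells from other trophoblast stayed within 1.5 times of 5529 in all alternatives run, from 3847 (no replicate block for the library) to 6702 (DESeq2), with 4576 to 5712 when a library was left out. With no replicate block the genes lower went from 2610 to 1647. Of the alternatives for the 30 named genes, 505 of 510 stayed on their side of the threshold with the same direction and 5 did not pass, and of those for all 96 genes so examined 1555 of 1631 stayed, 71 no longer passed and 5 newly passed. Counts between conditions moved with the tool: DESeq2 called 252 genes between genotypes at Day 14, 246 at Day 12, 51 between days in wild type, 108 between days in the mutant and 5 for the difference between genotypes in the contrast with other trophoblast, where edgeR called 0. Without the low-count filter edgeR called 1, 3, 1 and 3 in the first 4, and at a false discovery rate of 5% 0, 2, 1 and 1. With each library left out it called 0 to 1 genes in each of these 4 and 0 in the contrast, and without wild-type Day 14 library 1 a rate of 5% gave 542 at Day 14 and 28 at Day 12, and without wild-type Day 14 library 2 it gave 133 at Day 12. The cause was not tested. The replicate block called 0 genes in all 4 and left the difference in share at 6.71 points (p = 0.375, exact permutation over 16 arrangements), so it changed no call. That difference ranged from −1.77 points (exact permutation p = 0.833, without wild-type Day 14 library 2), its only change of direction, to 15.2 points with a library left out, and from 2.44 (50 CPM) to 12.98 points (thinned) otherwise. The share in mutant Day 14 library 1 was 41.9% over all cells and 53.3% over those of at least 10000 UMIs; whether depth or the kind of cell had a part was not tested. The conditions rest on 2 libraries each.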
